A study of Mus musculus with 9 samples.

Results

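Transcripts of the insulin-like growth factor (Igf) system were followed across fibroblasts, converted cells and cortical interneurons of the mouse. The genes were the ligand Igf1, its receptor Igf1r and the binding protein genes Igfbp2, Igfbp3, Igfbp4, Igfbp5, Igfbp6 and Igfbp7. They were found by matching these symbols to the Ensembl identifiers of the count table, which gave 8 of its 37224 genes, and all 8 passed the filter on low counts. RNA sequencing covered 9 libraries, 3 in each of 3 groups, all labelled as strain C57BL/6. iGABA cells were primary embryonic fibroblasts at 14 days in vitro of genetic reprogramming toward GABAergic interneurons, the first 2 of them in fibroblast medium and the rest in neuronal medium, and were sorted for GFP. GAD67 cells were interneurons taken directly from E18.5 embryonic cortex and sorted for GFP, which the design text ties to GAD67, a GABA-synthesising enzyme. MEF cells were the starting fibroblasts, from E13.5 embryos at passage 0, and were detached with trypsin but not sorted. Their label also names a shift to neuronal inducing medium without saying whether it preceded lysis, so the medium behind each MEF value is uncertain.

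Igf1 and its relative Igf2 are secreted growth factors. Both signal through Igf1r, a receptor tyrosine kinase that activates the PI3K-Akt and MAP kinase routes and favours growth and survival, and Igf1 is known in the developing brain as a factor for neuron growth and survival. The Igfbp proteins are secreted carriers that bind Igf1 and Igf2 with high affinity, prolong their life and limit or direct their access to the receptor, while Igfbp7 binds them only weakly. Proteases such as Pappa release the ligand by cutting the carriers.

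Libraries held 27501521 to 38975523 counts. CPM denotes counts scaled to a common library total with TMM, a method that corrects for differences in library make-up. Summed CPM of 11 fibroblast markers ran from 747 to 1042 in iGABA, from 135 to 143 in GAD67 and from 79946 to 88639 in MEF libraries. For 8 interneuron markers the sums were 675 to 688 in iGABA, 4098 to 4281 in GAD67 and 8.97 to 10.03 CPM in MEF libraries. In iGABA cells much of this sum was Gad1, the gene of GAD67, at 405 ± 8.21 CPM in iGABA and 745 ± 25.2 CPM in GAD67 cells. Gad2, the other GABA-synthesising enzyme, averaged 9.45 ± 1.05 CPM in iGABA and 514 ± 34.4 CPM in GAD67 cells, and the GABA transporter gene Slc32a1 2.83 ± 0.433 CPM in iGABA and 186 ± 3.50 CPM in GAD67 cells (SD, n = 3). Whether the GFP used to sort iGABA cells reports Gad1 is not stated in the labels. The 10 neuron markers summed to 1055 to 1114 CPM in iGABA, 8290 to 8793 CPM in GAD67 and 105 to 107 CPM in MEF libraries. Against MEF, iGABA cells had 9 of them higher and 1 lower, Stmn2, while 42.1% of all genes tested were higher. Against GAD67, iGABA cells had 3 higher and 7 lower. The name neuronal groups below covers iGABA and GAD67 cells and is for short only. A gene was called where the adjusted p of edgeR's quasi-likelihood test was under 0.05. In these bulk libraries fewer cells of a type and less RNA per cell cannot be told apart. Nothing in the labels ties the replicates to separate cultures or animals, so p-values reflect the spread between these libraries alone, and that spread may be technical.

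The promoters of 5 of the genes are shown as examples: Igf1r was the receptor that was low in iGABA cells alone, Igfbp3 and Igfbp7 had the lowest iGABA levels relative to MEF, and Igfbp2 and Igfbp4 were among the leading carriers in both neuronal groups. Igfbp5 and Igfbp6, which differed most between the neuronal groups among the carriers, are not shown. Each run is the 250 bases before the gene start, 5′ to 3′ on the gene's strand, from RefSeq on GRCm38.p6. All 8 genes matched the RefSeq table, with a second start for Igfbp2. Capitals mark matches on either strand to a GC box (GGGCGG) or a TATA box (TATAAA).
Igf1r (chr7:67952007-67952256, plus strand): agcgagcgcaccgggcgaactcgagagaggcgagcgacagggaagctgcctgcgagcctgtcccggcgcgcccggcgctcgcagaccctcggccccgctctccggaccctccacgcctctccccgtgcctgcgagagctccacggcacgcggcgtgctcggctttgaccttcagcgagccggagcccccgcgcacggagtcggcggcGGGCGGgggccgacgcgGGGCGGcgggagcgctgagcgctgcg
Igfbp2 (chr1:72824230-72824479, plus strand): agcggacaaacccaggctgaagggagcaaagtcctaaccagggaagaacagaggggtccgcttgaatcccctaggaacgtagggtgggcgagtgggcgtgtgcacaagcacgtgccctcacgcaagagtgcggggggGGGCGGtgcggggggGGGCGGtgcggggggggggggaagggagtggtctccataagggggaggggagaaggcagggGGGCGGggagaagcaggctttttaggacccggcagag
Igfbp3 (chr11:7213924-7214173, minus strand): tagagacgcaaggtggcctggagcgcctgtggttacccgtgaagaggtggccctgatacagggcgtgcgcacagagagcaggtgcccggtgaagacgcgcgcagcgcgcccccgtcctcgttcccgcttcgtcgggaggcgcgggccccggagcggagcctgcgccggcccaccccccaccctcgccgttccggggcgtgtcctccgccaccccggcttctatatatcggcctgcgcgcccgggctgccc
Igfbp4 (chr11:99040994-99041243, plus strand): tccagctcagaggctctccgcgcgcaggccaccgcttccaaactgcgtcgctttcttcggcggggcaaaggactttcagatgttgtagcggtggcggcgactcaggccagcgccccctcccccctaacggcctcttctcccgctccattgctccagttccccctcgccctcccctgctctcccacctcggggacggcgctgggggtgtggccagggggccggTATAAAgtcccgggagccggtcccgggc
Igfbp7 (chr5:77408046-77408295, minus strand): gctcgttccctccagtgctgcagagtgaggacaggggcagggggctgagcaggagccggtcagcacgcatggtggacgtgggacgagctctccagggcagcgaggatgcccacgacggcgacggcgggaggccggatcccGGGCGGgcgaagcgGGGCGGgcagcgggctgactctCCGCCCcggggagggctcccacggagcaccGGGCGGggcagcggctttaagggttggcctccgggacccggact

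The GC box was present in the Igf1r promoter with 2 matches, in Igfbp2 with 3 and in Igfbp7 with 4, and 32.7% of 32841 promoters of the same length held at least 1. The Igfbp4 promoter held a TATA box 28 bases before the start, a motif found in 12.4% of promoters. The AP-1 motif (TGANTCA) was in none of these 5 and in 6.75% of all promoters. Among the other windows it matched once in Igf1 and once at the second Igfbp2 start, and a TATA box matched in Igfbp6 at position -148. No matches of different motifs overlapped in these windows. The Igf1r window was 77.6% G and C, above 97.6% of promoters, where the median was 52.4%. Igfbp7 at 74.0%, Igfbp3 at 73.2%, Igfbp4 at 69.2% and Igfbp2 at 67.2% were also GC-rich. The windows not shown lay nearer the median, with Igfbp5 at 58.8%, the second Igfbp2 start at 56.4%, Igf1 at 52.8% and Igfbp6 at 49.6%. A motif match is a description of letters only. The RefSeq starts of Igf1r and Igfbp6 and the first of Igfbp2 lie before the gene models in the count table. Those of Igf1 and Igfbp5 and the second of Igfbp2 lie inside the models, so the Igf1 window is not upstream of the counted gene.

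In converted cells the whole set stood below the fibroblast level. All 8 genes fell in iGABA against MEF cells, each at least 2-fold, and no iGABA library overlapped a MEF library for any of them. Over all 18085 genes tested, 81.9% were called in that comparison, 39.7% lower and 42.1% higher. By at least 2-fold, 4303 of them were called lower. How many of all genes had no overlap between these groups was not counted. The median log2 fold change was -3.10 over the 8 genes and 0.05 over all genes tested. With scaling by library size alone the split over all genes was 9941 higher and 5283 lower, against 7618 higher and 7188 lower with TMM, and the 8 genes were called lower under both.

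In cortical interneurons 7 of the 8 genes stood below the fibroblast level, and Igf1r did not pass. Over all genes tested, 86.9% were called in GAD67 against MEF cells, 43.8% lower and 43.1% higher. The median log2 fold change was -4.92 over the 8 genes and 0.00 over all genes. Set directly against GAD67 cells, iGABA cells had 3 of the 8 genes higher (Igfbp3, Igfbp5 and Igfbp6), 3 lower (Igf1, Igf1r and Igfbp4) and 2 that did not pass (Igfbp2 and Igfbp7). For that comparison 80.6% of all genes were called, 41.3% higher and 39.3% lower. The comparisons with MEF share the MEF libraries, so their values are given side by side only.

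**Figure D1:**
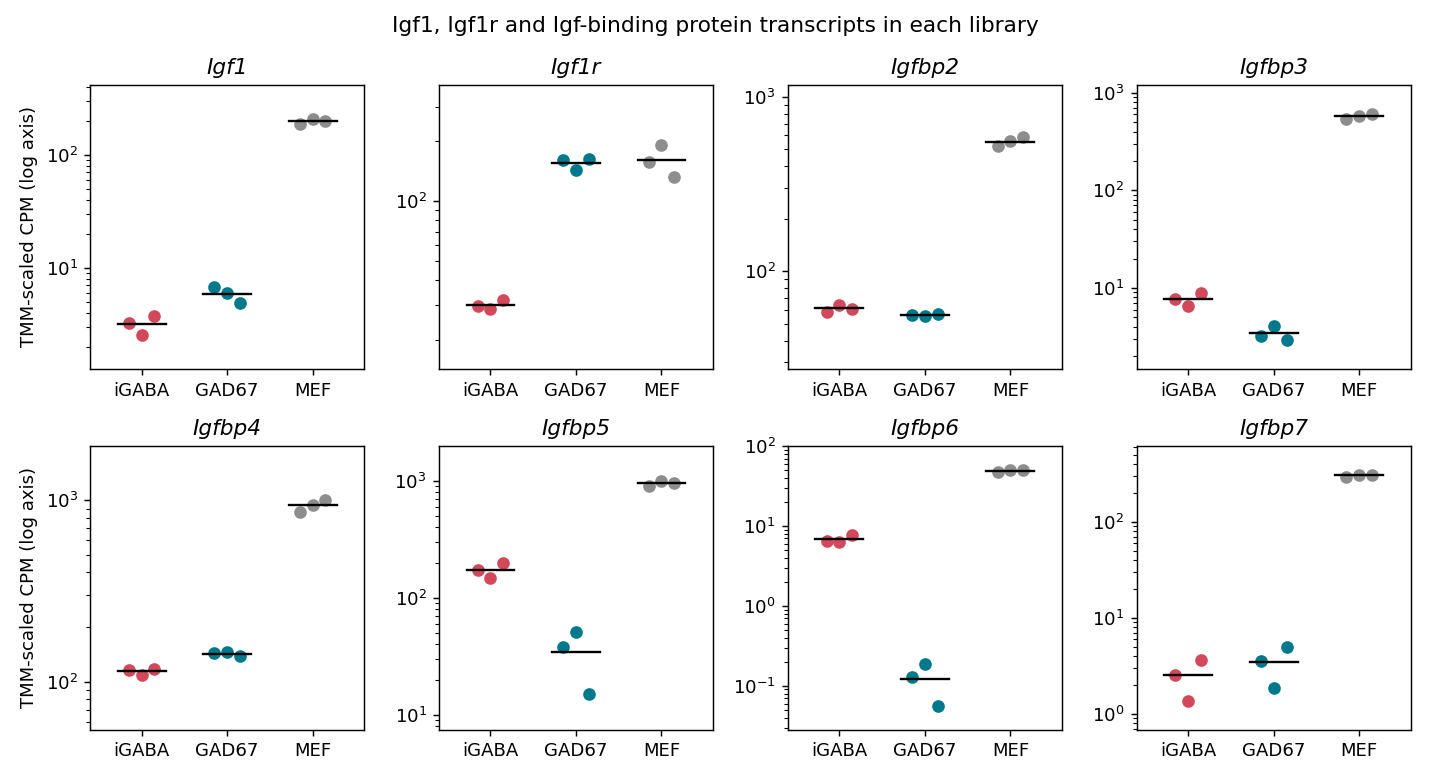
Level of each gene in every library, as TMM-scaled CPM on a log axis, in iGABA, GAD67 and MEF cells. Points are libraries and lines are group means (n = 3). MEF libraries lie highest in 7 panels, while for Igf1r the GAD67 and MEF points overlap near 150 CPM and the iGABA points lie near 30 CPM.

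Igf1 (ENSMUSG00000020053, mm10 chromosome 10, 87858265 to 87937042, plus strand, 8 exons) encodes the ligand. Its level was 3.29, 2.56 and 3.72 CPM in the 3 iGABA libraries, 6.74, 5.99 and 4.94 CPM in GAD67 libraries, and 190, 208 and 199 CPM in MEF libraries. The 3 groups did not overlap, with iGABA lowest and MEF far above both neuronal groups. Igf1 fell by 5.98 on the log2 scale in iGABA against MEF cells (SE 0.123, edgeR adjusted p = 1.17e-13), which is 63.0-fold lower. The GAD67 level was 33.7-fold below MEF (log2 fold change -5.07, SE 0.114, edgeR adjusted p = 1.14e-13). Against GAD67, iGABA cells had 1.87-fold less (log2 fold change -0.90, SE 0.138, edgeR adjusted p = 4.71e-05).

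Markers of macrophages, cells known to make Igf1, were highest in the MEF cultures. The 12 macrophage markers summed to 11.1 to 13.4 CPM in iGABA, 6.58 to 8.13 CPM in GAD67 and 589 to 634 CPM in MEF libraries. C1qa and Cx3cr1 had no count in any iGABA library. All 12 markers fell in iGABA against MEF cells, where 39.7% of all genes tested fell. Most of the iGABA sum was Cd68, a lysosomal protein gene, with a mean of 11.7 CPM in iGABA and 4.91 CPM in GAD67 cells. In iGABA against GAD67 cells Cd68 was the 1 marker called higher, while 7 were called lower and 4 did not pass. Of all genes tested, 41.3% were higher and 39.3% lower in that comparison. The part of these cells in the MEF level of Igf1 was not tested.

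Igf1r (ENSMUSG00000005533, mm10 chromosome 7, 67952859 to 68226780, plus strand, 21 exons) encodes the signalling receptor. Its level was 29.4, 28.5 and 31.9 CPM in iGABA libraries, 161, 143 and 163 CPM in GAD67 libraries, and 158, 193 and 132 CPM in MEF libraries. GAD67 and MEF libraries overlapped, and every iGABA library lay below both. Igf1r fell by 2.43 on the log2 scale in iGABA against MEF cells (SE 0.117, edgeR adjusted p = 4.25e-10), or 5.38-fold. In iGABA it was also 5.20-fold below GAD67 (log2 fold change -2.38, SE 0.116, edgeR adjusted p = 5.20e-10). The difference between GAD67 and MEF cells was -0.05 on the log2 scale with a 95% interval of -0.28 to 0.19 (edgeR adjusted p = 0.675). Its sign turned with scaling by library size alone and when MEF replicate 2 or GAD67 replicate 8 was left out. The count table's gene model of Igf1r ends at 68226780 and that of GENCODE vM21 at 68233668, so reads in the last part of the longer model were not counted and levels per length depend on this model.

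The 2 related receptors moved in other ways. Insr, the insulin receptor, which can pair with Igf1r in hybrid receptors, stood at 185, 182 and 177 CPM in iGABA, 219, 207 and 233 CPM in GAD67 and 108, 121 and 99.0 CPM in MEF libraries. The groups did not overlap, and Insr rose in iGABA (log2 fold change 0.73, edgeR adjusted p = 7.39e-07) and in GAD67 cells (1.004, edgeR adjusted p = 2.01e-08) against MEF. Igf2r, the mannose 6-phosphate receptor that clears Igf2, averaged 293 ± 3.63 CPM in iGABA, 75.9 ± 4.36 CPM in GAD67 and 1079 ± 112 CPM in MEF cells (SD, n = 3). It fell in both neuronal groups, with a log2 fold change of -1.88 in iGABA (edgeR adjusted p = 7.22e-11) and of -3.83 in GAD67 cells (edgeR adjusted p = 7.95e-14). Per length, the ratio of Igf1r to Insr levels was 0.335 to 0.386 in iGABA, 1.48 to 1.58 in GAD67 and 2.87 to 3.41 in MEF libraries. Insr exceeded Igf1r in iGABA libraries, and Igf1r exceeded Insr in MEF libraries, on this scale and in CPM. In GAD67 libraries Igf1r was the higher per length and Insr the higher in CPM, so that order rests on the lengths used, 4489 bases for Igf1r and 9633 for Insr.

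**Figure D2:**
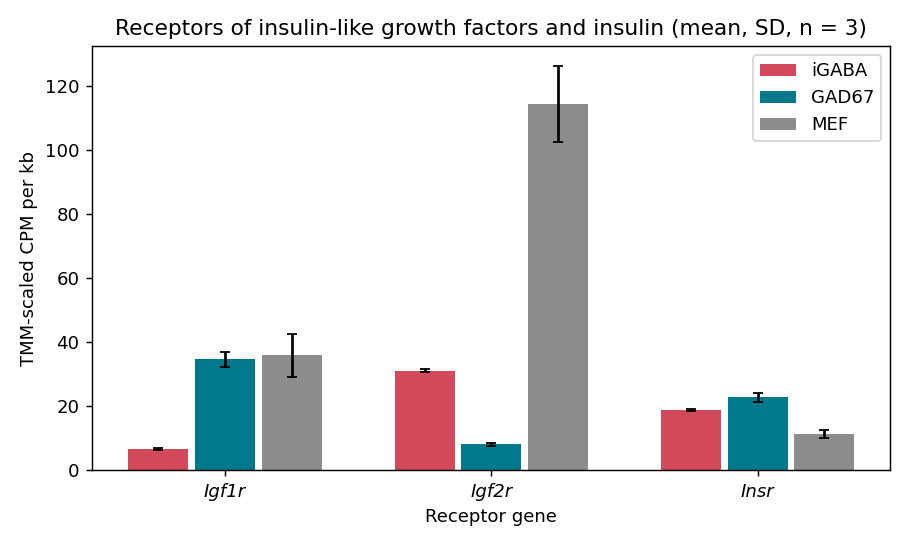
Mean level of 3 receptor genes in iGABA, GAD67 and MEF cells, in TMM-scaled CPM per kb of gene length (bars from 0, error bars SD, n = 3). Igf1r stood at 6.67 in iGABA against 34.7 in GAD67 and 35.9 in MEF cells, while Insr stood at 18.8, 22.8 and 11.4 in the same groups.

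Igfbp2 and Igfbp4 had the smallest fold changes between the 2 neuronal groups among the 6 carriers. Igfbp7, described below, was the only carrier whose iGABA and GAD67 libraries overlapped. Igfbp2 (ENSMUSG00000039323, mm10 chromosome 1, 72824503 to 72852474, plus strand, 5 exons), a carrier abundant in fetal tissue and in the brain, had 58.2, 64.3 and 60.9 CPM in iGABA, 56.0, 54.99 and 56.7 CPM in GAD67 and 521, 553 and 583 CPM in MEF libraries. It was 9.03-fold below MEF in iGABA (log2 fold change -3.18, SE 0.0623, edgeR adjusted p = 8.27e-14) and 9.88-fold below MEF in GAD67 cells (-3.30, SE 0.0627, edgeR adjusted p = 2.52e-14). All iGABA libraries lay above all GAD67 libraries, by 0.13 on the log2 scale with a 95% interval of 0.00 to 0.26, a difference that did not pass (edgeR adjusted p = 0.0598). It was called when libraries were scaled to their totals without TMM (log2 fold change 0.32, edgeR adjusted p = 9.66e-05) and without iGABA replicate 4 (0.17, edgeR adjusted p = 0.0412), within a range of 0.10 to 0.32 over all alternatives.

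Igfbp4 (ENSMUSG00000017493, mm10 chromosome 11, 99041244 to 99054392, plus strand, 8 exons) encodes a carrier known to inhibit Igf action and to be the main substrate of Pappa. It had 116, 109 and 118 CPM in iGABA, 143, 145 and 138 CPM in GAD67 and 861, 947 and 998 CPM in MEF libraries. MEF libraries lay highest, and GAD67 libraries lay above iGABA libraries with no overlap. The gene fell by 3.03 in iGABA (SE 0.0685, edgeR adjusted p = 2.85e-13) and by 2.72 in GAD67 cells (SE 0.0675, edgeR adjusted p = 3.01e-13) against MEF on the log2 scale. iGABA cells were 1.24-fold below GAD67 (log2 fold change -0.31, SE 0.0642, edgeR adjusted p = 0.000553), and without TMM factors, on library totals, it did not pass (-0.12, edgeR adjusted p = 0.0834), within a range of -0.35 to -0.12 over all alternatives.

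Igfbp5 and Igfbp6 differed most between converted cells and cortical interneurons among the 6 carriers, by fold change. Igfbp5 (ENSMUSG00000026185, mm10 chromosome 1, 72857932 to 72874884, minus strand, 4 exons), which lies beside Igfbp2 and encodes a carrier that binds the extracellular matrix, had 174, 148 and 199 CPM in iGABA, 37.9, 51.4 and 14.97 CPM in GAD67 and 899, 996 and 953 CPM in MEF libraries. The groups did not overlap, and GAD67 replicate 9 lay far below the other 2 interneuron libraries. Igfbp5 fell by 2.45 in iGABA (SE 0.294, edgeR adjusted p = 4.72e-06) and by 4.77 in GAD67 cells (SE 0.329, edgeR adjusted p = 1.25e-08) against MEF on the log2 scale. It was 4.996-fold higher in iGABA than in GAD67 cells (log2 fold change 2.32, SE 0.300, edgeR adjusted p = 1e-05). Alternatives, leaving out replicate 9 among them, gave 1.95 to 2.71.

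Igfbp6 (ENSMUSG00000023046, mm10 chromosome 15, 102144362 to 102149511, plus strand, 4 exons) encodes a carrier that prefers Igf2. Its level was 6.56, 6.40 and 7.82 CPM in iGABA, 0.128, 0.186 and 0.0565 CPM in GAD67 and 48.1, 49.98 and 50.8 CPM in MEF libraries. The GAD67 values rest on 14 counts over 3 libraries, against 783 counts over the iGABA libraries. The SE values below for comparisons with GAD67 cells come from the F value. They are smaller than counting error on 14 counts, so they overstate the precision. Igfbp6 fell against MEF, with a log2 fold change of -2.85 in iGABA (SE 0.103, edgeR adjusted p = 2.39e-11) and of -8.60 in GAD67 cells (SE 0.178, edgeR adjusted p = 5.22e-14). The iGABA level was 53.8-fold above GAD67 (log2 fold change 5.75, SE 0.211, edgeR adjusted p = 2.64e-11), the widest gap between the 2 neuronal groups among the 8 genes.

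Igfbp3 and Igfbp7 fell furthest among the carriers in converted cells. Igfbp3 (ENSMUSG00000020427, mm10 chromosome 11, 7206086 to 7213923, minus strand, 5 exons), the main carrier of Igf1 in blood, had 7.64, 6.59 and 8.88 CPM in iGABA, 3.24, 4.08 and 2.97 CPM in GAD67 and 536, 579 and 601 CPM in MEF libraries. It was 74.7-fold below MEF in iGABA (log2 fold change -6.22, SE 0.115, edgeR adjusted p = 5.14e-14) and 166-fold below MEF in GAD67 cells (-7.38, SE 0.125, edgeR adjusted p = 9.33e-15). All iGABA libraries lay above all GAD67 libraries, 2.23-fold on average (log2 fold change 1.16, SE 0.131, edgeR adjusted p = 2.75e-06).

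Igfbp7 (ENSMUSG00000036256, mm10 chromosome 5, 77349240 to 77408045, minus strand, 6 exons) encodes the low-affinity relative, known from blood vessels and stroma. It had 2.55, 1.36 and 3.60 CPM in iGABA, 3.50, 1.83 and 4.97 CPM in GAD67 and 292, 310 and 312 CPM in MEF libraries. The 2 neuronal groups overlapped, and MEF libraries lay far above both. Igfbp7 was 125-fold below MEF in iGABA (log2 fold change -6.97, SE 0.266, edgeR adjusted p = 4.19e-11) and 89.1-fold below MEF in GAD67 cells (-6.48, SE 0.256, edgeR adjusted p = 3.38e-11). Between iGABA and GAD67 cells the difference was -0.49 on the log2 scale with a 95% interval of -1.20 to 0.23 (edgeR adjusted p = 0.186). It passed without iGABA replicate 6 (-0.80, edgeR adjusted p = 0.0494) and without GAD67 replicate 8 (-0.79, edgeR adjusted p = 0.0099), within a range of -0.80 to -0.15 over all alternatives. Exons of Igfbp7 share 85 bases with Polr2b, a gene on the opposite strand, and the strand setting of the counting is not given in the sources used here, so the low Igfbp7 values are uncertain.

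**Figure D3:**
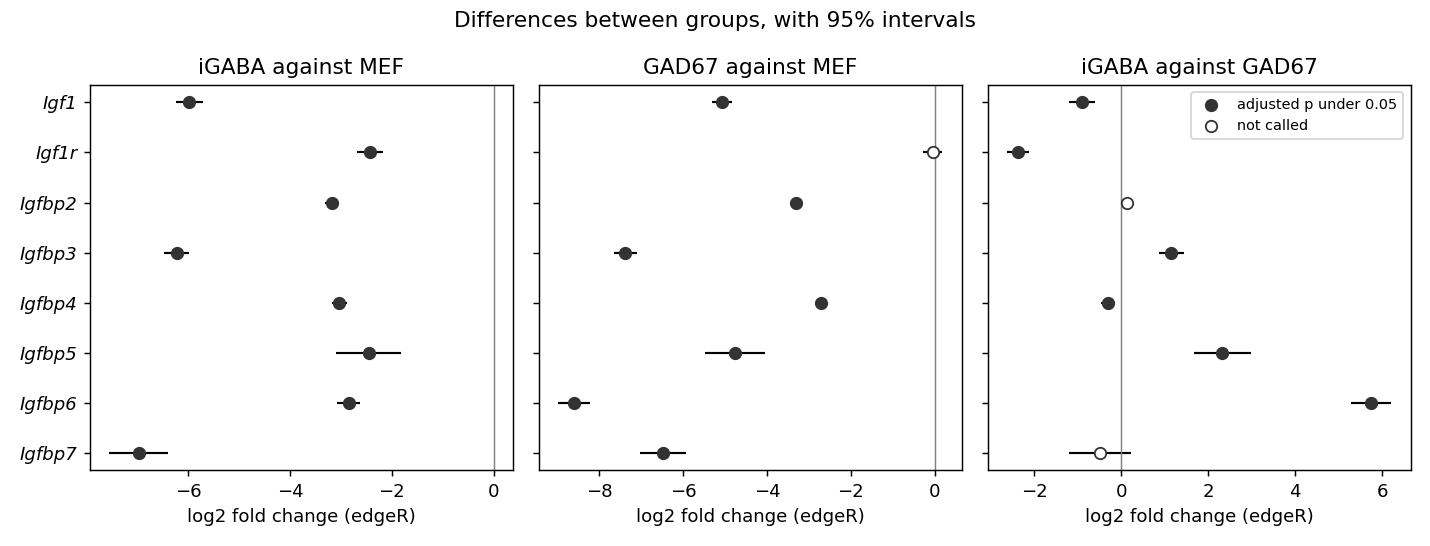
edgeR log2 fold change of each gene with its 95% interval in 3 comparisons, iGABA against MEF, GAD67 against MEF and iGABA against GAD67. Filled points passed at adjusted p under 0.05. The intervals of Igfbp6 in the comparisons with GAD67 cells are too narrow for its few GAD67 counts. All 8 points are filled and negative in the first panel, Igf1r is the 1 open point in the second, and Igfbp2 and Igfbp7 are open in the third.

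The 8 endothelial markers summed to 29.2, 14.6 and 53.6 CPM in GAD67 replicates 7, 8 and 9, and the 6 mural cell markers to 24.4, 13.3 and 42.8 CPM, in the same order as Igfbp7, and none of these markers was at 0 in any GAD67 library. That order was not particular to them, since Igf1r, Igfbp2, the macrophage, neuron and interneuron marker sums and 28.6% of all genes tested shared it. In iGABA libraries the endothelial markers summed to 2.25 to 4.82 CPM and the mural cell markers to 43.3 to 55.5 CPM. In MEF libraries the endothelial sum was 236 to 254 CPM, mostly Flt1 with a mean of 228 CPM. The mural sum there was 673 to 718 CPM. The part of endothelial and mural cells in the Igfbp7 values was not tested. In converted cells the 11 fibroblast markers summed to 0.876% to 1.22% of their MEF mean. The level of Igfbp5 was 15.6% to 21.0% of its MEF mean, that of Igfbp6 12.9% to 15.8%, that of Igfbp4 11.6% to 12.6% and that of Igfbp2 10.5% to 11.6%. Igf1 at 1.28% to 1.87%, Igfbp3 at 1.15% to 1.55% and Igfbp7 at 0.447% to 1.18% were nearer to that sum. In MEF cells the sum is carried by the collagen genes Col1a1 and Col1a2, with means of 38876 and 24134 CPM. In iGABA cells these averaged 250 and 214 CPM, and Pdgfra and Thy1 also made up much of the sum. Single markers differed widely. Pdgfra, a growth factor receptor gene, averaged 152 ± 11.8 CPM in iGABA and 277 ± 4.31 CPM in MEF cells, and the surface protein gene Thy1 164 ± 6.34 CPM in iGABA and 409 ± 18.6 CPM in MEF cells (SD, n = 3), both higher relative to MEF than any of the 8 genes. The part of remaining fibroblasts in the iGABA values was not tested.

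Because long genes collect more reads, levels of different genes were compared as CPM per kb of gene length. The 6 carriers together had 93.2 to 106 CPM per kb in iGABA, 69.5 to 74.1 in GAD67 and 1082 to 1195 in MEF libraries. Their sum relative to the level of Igf1r was 14.7 to 14.9 in iGABA, 1.92 to 2.32 in GAD67 and 27.1 to 40.5 in MEF libraries, so the iGABA ratio lay between the other groups with no overlap. These sums count transcripts per length and not protein.

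The make-up of the carriers differed between groups. In iGABA cells Igfbp2 took 33.7% ± 3.27 of the summed level per kb, Igfbp5 29.2% ± 2.51 and Igfbp4 26.2% ± 0.906. In GAD67 cells Igfbp4 at 44.5% ± 0.349 and Igfbp2 at 41.9% ± 2.03 took most, with Igfbp5 at 7.92% ± 4.02. MEF cells had a more even make-up, with Igfbp2 at 26.1% ± 0.364, Igfbp7 at 21.9% ± 0.380, Igfbp4 at 18.4% ± 0.445 and Igfbp3 at 15.9% ± 0.124 (SD, n = 3). Igfbp5 at 13.8% ± 0.478 and Igfbp6 at 3.89% ± 0.0915 made up the rest in MEF cells. Counted without division by length, the order changed in iGABA and MEF cells. Igfbp5 then led in iGABA cells with 47.3%, before Igfbp4 with 31.3% and Igfbp2 with 16.8%. In GAD67 cells Igfbp4 still led, with 59.5%, before Igfbp2 with 23.5% and Igfbp5 with 14.1%. MEF cells then had Igfbp5 at 28.2%, Igfbp4 at 27.8%, Igfbp3 at 17.0%, Igfbp2 at 16.4% and Igfbp7 at 9.06%.

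**Figure D4:**
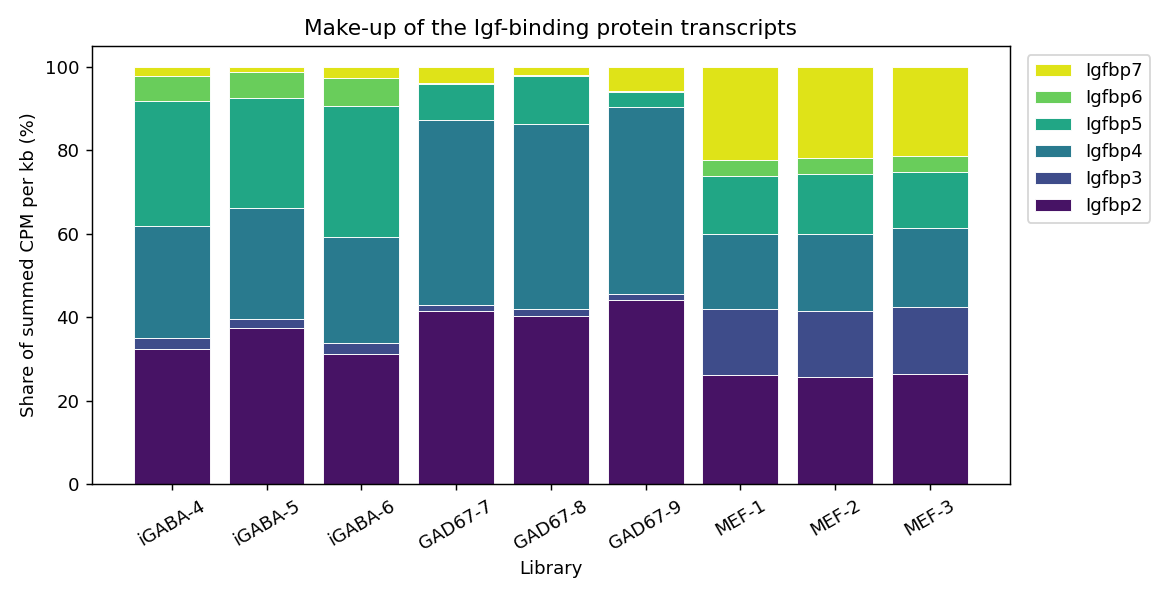
Share of each of 6 Igfbp genes in their summed TMM-scaled CPM per kb, in percent, for each iGABA, GAD67 and MEF library (stacked bars from 0 to 100). Igfbp3 and Igfbp7 fill 15.9% and 21.9% on average of the MEF bars and at most 5.90% each in any neuronal library, while Igfbp5 fills 29.2% on average in iGABA and 7.92% in GAD67 bars.

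Ordered by level per kb within iGABA cells, Igfbp2, Igfbp5 and Igfbp4 came first, with neighbours whose ranges overlapped. Igf1r at 6.67 and Igfbp6 at 6.23 CPM per kb followed and overlapped, then Igfbp3 at 2.46 and Igfbp7 at 2.06, which overlapped too, and last Igf1 at 0.322. In GAD67 cells Igf1r at 34.7 and Igfbp4 at 32.2 CPM per kb led with overlapping ranges, followed by Igfbp2 at 30.3. Igfbp5 at 5.78 and Igfbp7 at 2.83 came next with overlapping ranges, then Igfbp3 at 1.096, Igf1 at 0.595 and Igfbp6 at 0.111. The MEF order was Igfbp2 at 299, Igfbp7 at 251, Igfbp4 at 212, Igfbp3 at 183, Igfbp5 at 158, Igfbp6 at 44.6, Igf1r at 35.9 and Igf1 at 20.1 CPM per kb, and no neighbours overlapped.

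Around these genes, 65 others of the pathway were listed and 60 of them passed the filter. In iGABA against MEF cells 20 of the 60 rose, 35 fell and 5 did not pass, with a median log2 fold change of -0.38. With scaling by library size alone 27 rose and 26 fell. In GAD67 against MEF cells 26 rose, 31 fell and 3 did not pass (median -0.20), and in iGABA against GAD67 cells 23 were higher, 28 lower and 9 did not pass (median -0.26). Of all genes tested, 42.1% rose and 39.7% fell in iGABA, and 43.1% rose and 43.8% fell in GAD67 cells against MEF. Between iGABA and GAD67 cells 41.3% were higher and 39.3% lower in iGABA.

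Among ligands, other receptors and carriers, 7 of 11 were tested, and 3 rose, 3 fell and 1 did not pass in each comparison with MEF. Of all genes tested, 81.9% were called in iGABA and 86.9% in GAD67 cells against MEF. Igf2, the fetal growth factor, stood at 50.1, 37.0 and 60.1 CPM in iGABA, 14.0, 9.12 and 17.1 CPM in GAD67 and 15027, 16104 and 16763 CPM in MEF libraries. It fell by 8.35 in iGABA (SE 0.253, edgeR adjusted p = 4.17e-12) and by 10.2 in GAD67 cells (SE 0.274, edgeR adjusted p = 6.36e-13) against MEF on the log2 scale. Per length, Igf2 exceeded Igf1 25.02 to 27.9 times in iGABA, 2.63 to 6.00 times in GAD67 and 134 to 146 times in MEF libraries. Igfbpl1, a secreted relative of the carriers found in young neurons, went the other way, with 178, 191 and 174 CPM in iGABA, 777, 803 and 716 CPM in GAD67 and 1.21, 1.05 and 1.06 CPM in MEF libraries. It rose by a log2 fold change of 7.36 in iGABA (edgeR adjusted p = 3.91e-15) and of 9.44 in GAD67 cells (edgeR adjusted p = 4.42e-16). The insulin genes Ins1 and Ins2 had no count in any library. Igfbp1 and the serum carrier subunit Igfals did not pass the filter.

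Of 6 genes of carrier proteases and their inhibitors, 5 fell and 1 rose in each comparison with MEF. Of all genes tested, 39.7% fell and 42.1% rose in iGABA, and 43.8% fell and 43.1% rose in GAD67 cells against MEF. Pappa, the metalloprotease that cuts Igfbp4, had 1.29, 0.812 and 1.34 CPM in iGABA, 1.15, 1.17 and 0.650 CPM in GAD67 and 145, 162 and 119 CPM in MEF libraries. It fell against MEF, with a log2 fold change of -6.97 in iGABA (edgeR adjusted p = 8.94e-13) and of -7.15 in GAD67 cells (edgeR adjusted p = 3.85e-13). Its relative Pappa2, which cuts Igfbp3 and Igfbp5, and the matrix protease gene Mmp2 had log2 fold changes of -6.74 and -6.89 in iGABA against MEF cells. Stc1, an inhibitor of Pappa, was the gene that rose, by a log2 fold change of 0.36 in iGABA (edgeR adjusted p = 0.0172) and of 1.35 in GAD67 cells (edgeR adjusted p = 1.89e-07). The other listed inhibitor, Stc2, fell against MEF, with a log2 fold change of -2.49 in iGABA and of -4.24 in GAD67 cells. In MEF cells Stc2 averaged 46.1 CPM and Stc1 6.26 CPM.

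Among relatives that share the Igf-binding domain, 10 of 11 were tested, and 8 fell, 1 rose and 1 did not pass in iGABA against MEF cells. Of all genes tested, 39.7% fell and 42.1% rose in that comparison, and 43.8% fell and 43.1% rose in GAD67 against MEF cells. The matricellular gene Ccn2 had a log2 fold change of -7.35 and the serine protease gene Htra3 of -6.73. Esm1, a proteoglycan gene of endothelial cells, had 1 count over the iGABA libraries and none over the GAD67 libraries. It stood at 1.21 CPM in MEF cells, 140 times the iGABA level (95% counting interval 24.6 to 5565), and was at least 45.7-fold lower in GAD67 cells, set against 3 counts over the group. In GAD67 against MEF cells 9 of the 10 fell, with Ccn3 at -12.4, Ccn4 at -11.5, Ccn2 at -9.02 and Ccn1 at -8.23 on the log2 scale. Ccn3 had 5 counts and Ccn4 had 12 over the GAD67 libraries, so the size of their folds is uncertain. Between the neuronal groups, iGABA cells had more Ccn4 (log2 fold change 6.14), Ccn3 (5.88), Kazald1 (5.80) and Ccn5 (4.05) than GAD67 cells, and less Ccn6 (-4.77). The Ccn folds here also rest on low counts, with 16 for Ccn5 over the GAD67 libraries and 4 for Ccn6 over the iGABA libraries. Kazald1, a secreted protein gene of bone-forming cells, had 44.1, 45.6 and 40.3 CPM in iGABA, 0.690, 0.795 and 0.847 CPM in GAD67 and 19.5, 22.8 and 24.6 CPM in MEF libraries.

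Of 37 adaptors and downstream signalling genes, 15 rose and 19 fell in iGABA against MEF cells, and 21 rose and 14 fell in GAD67 against MEF cells. Among all genes tested, 42.1% rose and 39.7% fell in the first of these comparisons, and 43.1% and 43.8% in the second. Irs1, the docking protein next to the receptor, had 8.76, 8.74 and 9.91 CPM in iGABA, 66.2, 55.2 and 77.0 CPM in GAD67 and 140, 159 and 134 CPM in MEF libraries. It was lower in iGABA than in GAD67 cells (log2 fold change -2.86, edgeR adjusted p = 1.11e-10) and than in MEF cells (-3.99, edgeR adjusted p = 4.91e-12). Shc1, the adaptor toward MAP kinases, averaged 244 ± 4.81 CPM in iGABA, 11.6 ± 0.699 CPM in GAD67 and 154 ± 0.723 CPM in MEF cells (SD, n = 3), a log2 fold change of 4.39 between iGABA and GAD67. Eif4ebp1, a repressor of translation under mTOR control, fell against MEF with a log2 fold change of -3.95 in iGABA and of -8.43 in GAD67 cells, and was higher in iGABA than in GAD67 cells (4.48).

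**Figure D5:**
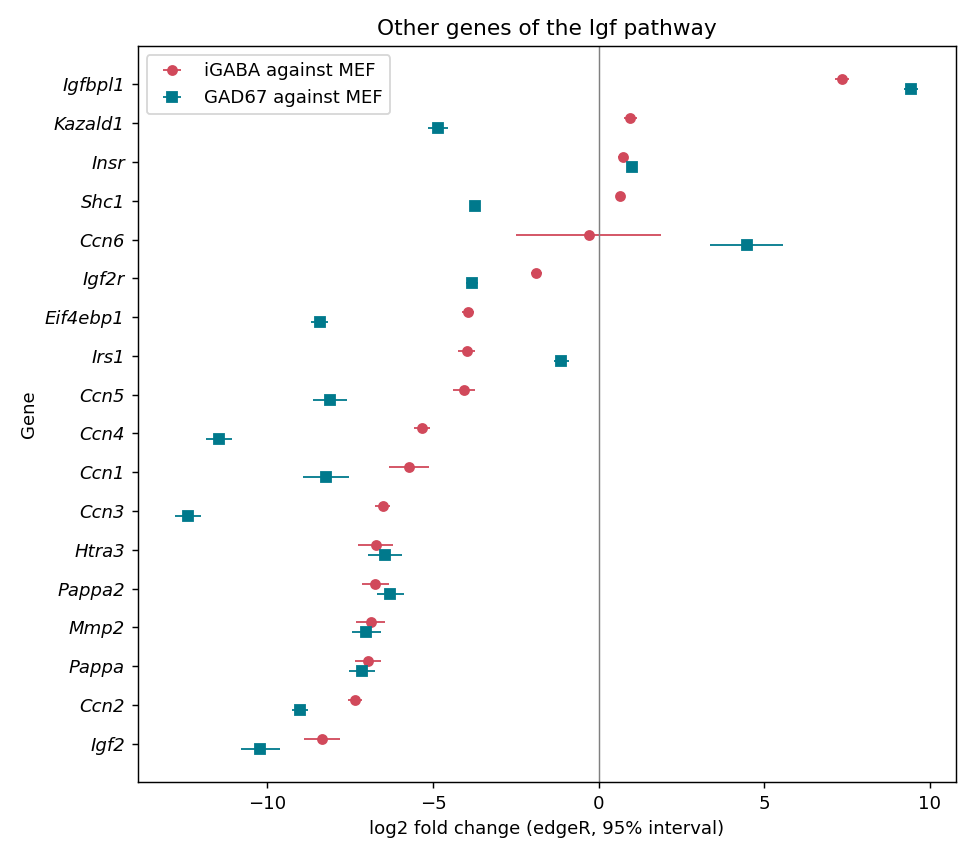
edgeR log2 fold change against MEF cells, with 95% intervals, of the other pathway genes named by size or by choice, for iGABA (circles) and GAD67 cells (squares). Esm1 is left out because GAD67 libraries had no count of it. Intervals of genes with few counts, such as Ccn3 and Ccn4 in GAD67 cells, can be too narrow. Igfbpl1 lies far to the right at 7.36 and 9.44, and Igf2 far to the left at -8.35 and -10.2.

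Genes whose profile was most like each of the 8 were found by the root mean square difference of mean-centred log2 CPM over the 9 libraries, where a smaller value means a closer profile. The nearest to Igf1 were Slit2 (0.163), Tgfb3 (0.175) and Scara3 (0.179). For Igf1r they were Qk (0.176), Fam171a1 (0.180) and Erbin (0.190). Igfbp2 was nearest to Fcrl1 (0.117), Hopx (0.119) and F630028O10Rik (0.119), and Igfbp4 to Usp25 (0.0947), Glipr2 (0.116) and Chst2 (0.117). Igfbp3 lay nearest to Mgp (0.135), Tgfbr3 (0.154) and Fgf2 (0.176), and Igfbp5 to Cnksr3 (0.151), Ssc5d (0.214) and Cercam (0.265). The closest to Igfbp6 were Timp3 (0.198), Hsp25-ps1 (0.239), a pseudogene whose reads may come from its parent gene, and Cast (0.252). Htra3 (0.144), Gm21451 (0.233) and Enpep (0.266) were closest to Igfbp7. Among the 8 genes themselves the closest pair was Igfbp2 and Igfbp4 (0.26), and the most distant was Igf1r and Igfbp6 (3.76).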

How the data were processed

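Whole-number read counts per gene and library, not normalised, were deposited by the authors in 1 table of 37224 genes. BWA 0.7.2, featureCounts, DESeq 1.10.1 and mm10 are named in the submitters' processing notes. What each did, the annotation and the counting's strand setting were not given in the sources used here, which leaves overlapping genes uncertain. Libraries were strand-marked, per the labels' protocols. The deposited gene length, used here for CPM per kb, equals the summed exons listed.

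Symbols came from GENCODE vM21, which named 35449 genes. Genes passed edgeR's filterByExpr (minimum count 10, minimum total 15), leaving 18085. The quasi-likelihood test of edgeR 4.0.16 in R 4.3.3 was fitted to all 9 libraries with TMM scaling and Benjamini-Hochberg adjustment over these genes, and a gene was called at adjusted p under 0.05. The code was tested on simulated data. SE and intervals come from the fold change and its F value. They can be too narrow where a large fold rests on few counts. Totals of 27501521 to 38975523 counts put the floor of a count of 0, 3 counts, at 0.0717 to 0.110 CPM. Floors and counting intervals cover counting error only. Alternatives were 2 other scalings, 2 other filters, DESeq2 1.42.0, fits to 6 libraries and leaving out each library. The 8 genes are all named, as are 4 chosen pathway genes and the 8 largest called changes per comparison. The genes and lists were chosen with earlier results of these data known.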

Additional observations from a re-analysis of the deposited data

How the results depend on the processing

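Over 15 alternatives, the 8 genes were called lower in iGABA against MEF cells in every one, and 7 of them in GAD67 against MEF cells in every one. No count of calls moved by over 1.5 times, and no member's fold moved by over 1.5 times. Igf1r in GAD67 against MEF cells, which was not called, changed sign to 0.17 with scaling by library size alone, to 0.11 without MEF replicate 2 and to 0.01 without GAD67 replicate 8, and leaving out 1 library at a time gave -0.16 to 0.11. In iGABA against GAD67 cells the number called higher ran from 3 to 4 and the number called lower from 2 to 4, through Igfbp2, Igfbp4 and Igfbp7 as described above. Over all genes the median difference on the log2 scale was 0.46 with library size alone and 0.05 with TMM in iGABA against MEF, 0.22 and 0.00 in GAD67 against MEF, and 0.22 and 0.02 in iGABA against GAD67 cells, so differences of that size hold relative to TMM. The cause of these moves was not tested. Shares of carriers moved by more than their spread in 17 of 18 cases when not divided by length, an alternative added after the data were seen. No paired analysis was possible because the groups share no replicate numbers. Depth limits Igfbp6 in GAD67 cells, with 14 counts.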

Other observations

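Converted libraries differed from each other in a shared order. Igf1, Igf1r, Igfbp3, Igfbp4, Igfbp5, Igfbp6 and Igfbp7 were all lowest in iGABA replicate 5, next in replicate 4 and highest in replicate 6, and Igfbp2 was not in that order. The summed fibroblast markers had the same order, at 747, 928 and 1042 CPM, as did the interneuron, endothelial, mural, radial glia and skeletal muscle sums. The neuron markers ran otherwise, with 1114 CPM in replicate 5, 1087 in replicate 4 and 1055 in replicate 6, and the macrophage sum was also lowest in replicate 6. Of all genes tested, 18.6% had the order 5, 4, 6. Library totals ran the opposite way, with 36799591 counts in replicate 5, 35055639 in replicate 4 and 27501521 in replicate 6. TMM factors were 1.138, 1.153 and 1.163 in replicates 5, 4 and 6. In the interneuron libraries Igfbp3, Igfbp4, Igfbp5 and Igfbp6 were lowest in GAD67 replicate 9, next in replicate 7 and highest in replicate 8. The 8 radial glia and astrocyte markers had that order too, at 139, 155 and 170 CPM, and so did 28.8% of all genes tested. The part of other cell types, of depth and of scaling in these values was not tested.

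Some downstream genes not described above moved far in converted cells. Foxo6, a forkhead factor of the nervous system, averaged 142 ± 3.09 CPM in iGABA, 98.0 ± 9.42 CPM in GAD67 and 2.29 ± 0.378 CPM in MEF cells (SD, n = 3). Grb10, an adaptor that restrains insulin and Igf receptor signalling, averaged 134 ± 14.4 CPM in iGABA, 44.5 ± 3.94 CPM in GAD67 and 2453 ± 53.8 CPM in MEF cells. Ptpn1, a phosphatase acting on the insulin receptor, averaged 298 ± 4.05 CPM in iGABA, 121 ± 6.80 CPM in GAD67 and 50.7 ± 1.69 CPM in MEF cells. All 3 were called in both comparisons with MEF by edgeR, as were 81.9% of all genes tested in iGABA and 86.9% in GAD67 cells. They were picked after their values were seen.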
